A study of Mus musculus with 45 samples.

Results

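Otx2, Pou3f1, Zic2, Zic5, Foxd3, Sox3 and Sall2 are transcription factors of the formative epiblast, and their RNA was followed here through 45 libraries of differentiating mouse embryonic stem cells (ESCs). The members were taken by gene symbol from each count table and each was found there as 1 row, so that they are 7 of the 35372 genes counted. All libraries came from E14tg2a, a male wild-type ESC line of the 129/Ola strain, and so from 1 line only. The cells had been kept in 2iL, which is serum-free N2B27 medium with LIF, the GSK3 inhibitor CHIR99021 and the MEK inhibitor PD0325901, or in SL, which is serum with LIF. They were then released into 3 differentiation courses. Embryoid bodies (EB) were aggregates in suspension in serum without LIF, FA cells grew as an adherent layer in N2B27 with Fgf2 and Activin A (the labels call this course EpiSC), and N2B27 cells grew adherent in that medium with nothing added (the labels call it neural). RNA was taken at days 0, 1, 1.5, 2, 2.5, 3, 5 and 7, with 1 library for each medium, course and day. Day 0 was sequenced 3 times from 2iL, once under each course, while the 3 courses from SL share 1 day 0 library. The 45 libraries include no FA library from 2iL at day 5.

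Because no combination was repeated, the 3 courses stood in as replicates of a day within a medium, and the media and neighbouring days as replicates of a course. The p-values therefore measure the spread between these libraries, and neighbouring days are not independent cultures, so the p-values for courses may be too small. Libraries held from 13093226 to 39804240 counted reads, and the 8 EB libraries from 2iL were the deepest as a set, at 31055159 or more, beside a median of 17297450 in the other 37. Levels below are CPM, the reads of a gene per 1000000 reads counted to genes in its library, or RPKM, which divides CPM by the kilobases of exon and is the scale used between genes. In bulk RNA, fewer cells of a type and less RNA per cell cannot be told apart.

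Pluripotent cells leave the naive state of the early epiblast through a formative phase, in which they lose the naive factors and become able to respond to signals for the germ layers. OTX2 is a homeodomain factor that works with OCT4 at the enhancers opened in this phase, and POU3F1 (also called OCT6) is a POU domain factor of the same period and of early neural cells. ZIC2 and ZIC5 are zinc finger factors of the epiblast and neural plate, FOXD3 is a forkhead factor needed in the epiblast and later in neural crest, SOX3 is the SOXB1 relative of SOX2 in neural progenitors, and SALL2 is a zinc finger relative of SALL4.

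In GRCm38, 4 of the 7 genes lie on chromosome 14. Otx2 is at chr14:48657677-48673819 on the minus strand and Sall2 is at chr14:52311172-52328762, also on the minus strand. Zic5 (chr14:122456795-122465677, minus) and Zic2 (chr14:122475435-122479852, plus) are turned away from each other with 9757 bases between them. Foxd3 (chr4:99656299-99658622, plus), Pou3f1 (chr4:124656807-124660655, plus) and Sox3 (chrX:60891366-60893430, minus) each have 1 exon in the annotation. The counts are of exon reads on the annotated strand. An antisense gene, Gm2164, shares 330 exon bases with Pou3f1 and had no read in any library, and Otx2os1, which shares 154 with Otx2, never passed 0.0690 CPM. A small RNA model inside the Foxd3 exon, Gm23366, covers 89 bases on the same strand and was counted as its own gene at up to 0.595 CPM, so reads there may have been lost to Foxd3. Of the other counted genes within 10 kb, Gm23469 near Otx2, Gm12682 near Foxd3 and Gm14662 near Sox3 had no read, Gm5089 near Zic5 never passed 0.475 CPM, and Mettl3, the RNA methyltransferase gene beside Sall2, held 13.4 to 23.2 CPM.

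RefSeq (GRCm38.p6) start sites were in hand for Foxd3, Otx2, Sall2 and Zic5, with 8 windows of 250 upstream bases in all, and not for Pou3f1, Sox3 and Zic2. On both strands, 10 motifs were searched, namely the octamer ATGCAAAT, the bicoid-type site TAATCC that OTX factors bind, the SOX site ACAAAG, the forkhead site TGTTTAC, the ZIC site CAGCAGG, the cAMP response element (CRE) TGACGTCA, the E-box CACGTG, the TATA box TATAAA, the CCAAT box and the GC box GGGCGG. No 2 matches in these windows shared bases. The windows are shown for Foxd3, whose start lies beside a non-coding gene that follows it, and for the Otx2 start that holds a bicoid-type site. Capitals mark the motif matches.
Foxd3, chr4:99656049-99656298, plus strand: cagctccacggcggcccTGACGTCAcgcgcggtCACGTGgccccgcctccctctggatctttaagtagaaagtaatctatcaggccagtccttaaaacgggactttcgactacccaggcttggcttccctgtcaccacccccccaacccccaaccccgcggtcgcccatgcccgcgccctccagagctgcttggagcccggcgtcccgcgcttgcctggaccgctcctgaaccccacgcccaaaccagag
Otx2, chr14:48665110-48665359, minus strand: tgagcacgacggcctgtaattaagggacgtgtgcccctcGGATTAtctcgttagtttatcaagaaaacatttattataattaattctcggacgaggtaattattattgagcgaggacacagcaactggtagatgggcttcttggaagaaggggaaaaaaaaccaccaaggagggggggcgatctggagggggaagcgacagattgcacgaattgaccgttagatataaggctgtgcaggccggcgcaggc
The Foxd3 window holds the CRE at bases 18 to 25 and the E-box at bases 34 to 39, counted from its 5′ end, which occur in 1.55% and 6.02% of all 32851 mouse windows. It has 21 CG dinucleotides, where the median window has 6, and a GC content of 65.6% against a median of 52.4%. The Otx2 window has the bicoid-type site on the opposite strand (GGATTA) at bases 40 to 45, a match found in 6.25% of windows. Another Otx2 window holds a CCAAT box and another a TATA box, 1 Sall2 window holds both of these, and the remaining Otx2 and Sall2 windows and the Zic5 window held none of the 10 motifs. The octamer, SOX, forkhead, ZIC and GC box letters were absent from all 8 windows. These are matches of letters and no binding was measured.

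Naive factors fell as the cells left 2iL and SL. Of 10 naive factors, 9 were lower at day 2 than at day 0 from 2iL and all 10 from SL (edgeR quasi-likelihood test, Benjamini-Hochberg adjusted over all genes tested, threshold 0.05). Of all genes tested, 7276 of 16306 from 2iL and 5320 of 16482 from SL were called there in either direction. Those called higher made up 23.8% and 15.6% of the genes tested. Esrrb and Tfcp2l1, which hold the naive network together, changed by -4.30 ± 0.50 and -6.60 ± 0.55 (log2 fold change ± SE) from 2iL, and Klf4 by -5.50 ± 0.64. Of 12 other genes known from the formative phase, 9 were higher at day 2 from 2iL and 8 from SL, with medians of 3.53 and 1.14 beside 0.047 and 0.008 over all genes tested. Fgf5, a growth factor that marks the formative epiblast, changed by 8.70 ± 1.28 from 2iL, the DNA methyltransferase gene Dnmt3b by 3.58 ± 0.57, and Lef1, a partner of beta-catenin, by 5.601 ± 0.83. The day 0 reads of Fgf5 were at or below 0.22 CPM in the 4 libraries, so its fold depends on few reads.

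**Figure D1:**
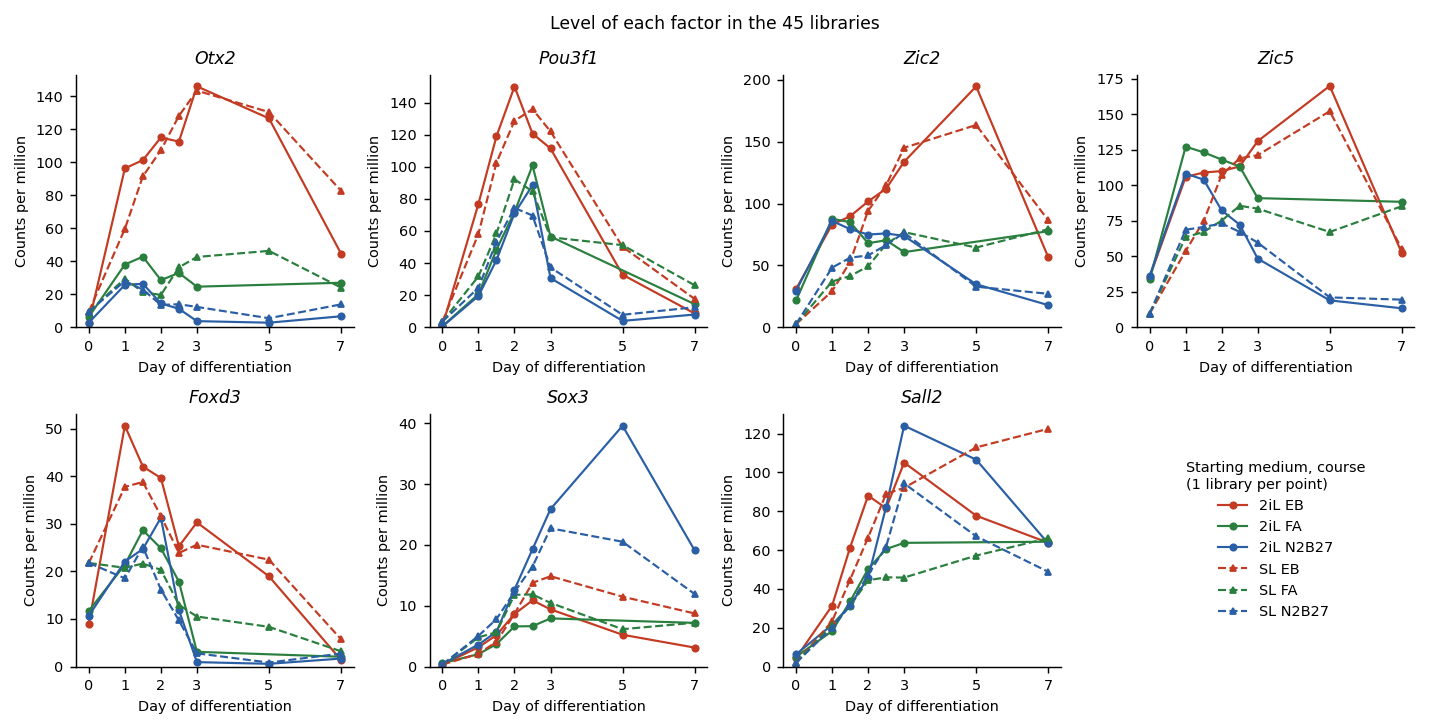
Level of each of the 7 factors in CPM (linear axis from 0) against the day of differentiation, with 1 library per point, colour for the course (EB red, FA green, N2B27 blue) and line for the starting medium (2iL solid with circles, SL dashed with triangles, its day 0 library drawn in all 3 SL courses). Pou3f1 peaks at day 2 or 2.5 in all 6 series and falls, Otx2 stays highest in EB, and within each medium Sox3 is highest in N2B27 from day 1 on.

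Pou3f1 rose and fell in all 6 series. It was nearly silent in 2iL, with 31, 10 and 11 reads in the 3 day 0 libraries. Over days 0, 1, 1.5, 2, 2.5, 3, 5 and 7, EB from 2iL held 0.922, 77.0, 119, 150, 120.7, 111.4, 32.7 and 8.60 CPM, and N2B27 cells from 2iL held 0.5135, 19.5, 41.9, 70.95, 88.5, 30.6, 3.96 and 7.91 CPM. FA cells from 2iL held 0.665, 20.6, 48.4, 71.8, 100.8, 56.5 and 14.4 CPM over the same days without day 5. Every one of these courses climbed to its highest level at day 2 or 2.5 and had lost most of it by day 7. From SL, Pou3f1 started at 3.57 CPM and then read 58.2, 102.6, 128.6, 135.9, 122, 50.1 and 17.65 CPM in EB from day 1 on. In FA cells it read 31.7, 58.4, 92.2, 84.6, 56.0, 51.2 and 26.2 CPM and in N2B27 cells 24.6, 53.4, 74.3, 69.6, 37.2, 7.75 and 12.45 CPM. The peak again fell at day 2 or 2.5, with EB above the adherent courses on every day from 1 to 3. Peaks were 151.5 to 172.4 times the day 0 level from 2iL and 20.85 to 38.1 times from SL, and day 7 retained 5.73 to 28.4% of the peak.

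Otx2 rose as early, but its later path depended on the course. Over the same 8 days, EB from 2iL held 2.825, 96.3, 101.3, 115, 112.5, 146, 126.6 and 44.7 CPM, and N2B27 cells from 2iL held 2.80, 25.7, 26.35, 14.45, 11.2, 3.705, 2.75 and 6.64 CPM. FA cells from 2iL, again without day 5, held 6.32, 38.0, 42.8, 28.6, 32.9, 24.6 and 26.96 CPM. In EB the level was near 100 CPM from day 1 and highest at day 3, whereas N2B27 cells had fallen back to their day 0 range by day 3. The SL day 0 library held 9.49 CPM, and from day 1 EB held 59.65, 91.5, 107.3, 128.1, 143.4, 130.4 and 82.75 CPM. FA cells from SL held 29.5, 21.2, 19.6, 36.3, 42.6, 46.3 and 24.1 CPM and N2B27 cells 28.0, 22.8, 13.5, 13.95, 12.3, 5.46 and 13.85 CPM. On every day from 1 to 7, the EB library stood above the adherent libraries of the same medium.

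Zic2 was already transcribed in 2iL, at 30.9, 21.6 and 29.55 CPM in the 3 day 0 libraries, but stood at 2.52 CPM in SL. EB from 2iL then held 83.1, 89.7, 101.7, 112, 133.8, 194.7 and 56.8 CPM on days 1 to 7, FA cells 87.65, 85.0, 67.9, 70.3, 60.7 and 77.6 CPM (no day 5) and N2B27 cells 85.9, 79.4, 75.0, 75.8, 73.8, 34.75 and 17.9 CPM. The 3 courses from 2iL started within 83.1 to 87.65 CPM at day 1 and then parted, EB rising to day 5 and N2B27 falling after day 3. From SL, EB held 29.1, 52.8, 94.1, 114.8, 145.1, 163.5 and 86.5 CPM, FA cells 36.95, 41.35, 49.3, 67.1, 76.9, 64.4 and 79.2 CPM and N2B27 cells 48.2, 56.2, 58.1, 66.4, 76.4, 32.8 and 27.03 CPM. The day 1 libraries from SL all held less than those from 2iL, and EB passed both adherent courses at day 2.

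Zic5 moved much as its neighbour Zic2. It held 35.4, 33.7 and 36.3 CPM at day 0 in 2iL and 9.60 in SL. By day 1 it had reached 105.9, 127.2 and 108.2 CPM in EB, FA and N2B27 cells from 2iL and 53.7, 63.4 and 68.7 CPM from SL. At day 5 the level was 170 CPM in EB and 18.9 in N2B27 cells from 2iL, and 152.2 CPM in EB, 67.1 in FA and 21.0 in N2B27 cells from SL. The N2B27 libraries of days 5 and 7, at 13.3 to 21.0 CPM, lay below all EB and FA libraries of those days.

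Foxd3 was present before differentiation. The SL day 0 library held 21.8 CPM and the 2iL libraries 9.01, 11.7 and 10.7 CPM. On days 1 to 7, EB from 2iL held 50.6, 42.05, 39.6, 25.3, 30.3, 19.0 and 1.38 CPM and EB from SL 37.8, 38.8, 31.6, 23.9, 25.6, 22.5 and 5.75 CPM. FA cells from 2iL (no day 5) held 21.4, 28.7, 24.9, 17.9, 3.09 and 2.06 CPM and N2B27 cells 22.1, 24.7, 31.3, 11.9, 0.926, 0.5735 and 1.67 CPM. The rise in EB came within 1 day from 2iL, and in N2B27 cells the level dropped from 31.3 CPM at day 2 to 0.926 at day 3. From SL, FA cells held 20.75, 21.7, 20.3, 13.0, 10.5, 8.345 and 3.205 CPM and N2B27 cells 18.55, 25.15, 16.2, 9.69, 2.78, 0.836 and 2.725 CPM. At day 7 all 6 libraries were at 5.75 CPM or less, below the day 0 level of their medium.

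Sox3 and Sall2 peaked at day 2.5 or later in all 6 series and were above their day 0 level at day 7. Sox3 began with 6 to 11 reads in each of the 4 day 0 libraries, at 0.327 to 0.532 CPM. In N2B27 cells from 2iL it then held 3.61, 5.71, 12.7, 19.3, 25.9, 39.6 and 19.1 CPM and in those from SL 5.05, 7.80, 12.3, 16.4, 22.7, 20.5 and 11.9 CPM. In EB from 2iL it held 3.17, 5.17, 8.64, 10.9, 9.40, 5.23 and 3.115 CPM and in EB from SL 2.09, 4.08, 8.66, 13.8, 14.8, 11.5 and 8.73 CPM, while the FA libraries ranged from 2.04 to 11.8 CPM. N2B27 was thus the only course in which Sox3 passed 15 CPM. Sall2 held 4.46, 4.99 and 6.30 CPM at day 0 in 2iL and 1.92 in SL, and had risen by day 3 in all 6 series, to 105.1, 63.7 and 124.1 CPM in EB, FA and N2B27 cells from 2iL and 92.1, 45.8 and 94.4 CPM from SL. It stayed between 48.8 and 122.5 CPM at days 5 and 7.

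Per length, Zic2 and Pou3f1 were the most abundant of the 7 at day 2. The means from 2iL were 28.3 ± 6.2 RPKM for Zic2 (SD, n = 3 courses), 25.4 ± 11.8 for Pou3f1, 21.2 ± 3.8 for Zic5, 13.7 ± 3.2 for Foxd3, 12.5 ± 12.9 for Otx2, 11.3 ± 4.3 for Sall2 and 4.5 ± 1.5 for Sox3. Each neighbouring pair in that order differed by less than the larger of its SDs, except Zic5 with Foxd3 and Sall2 with Sox3. From SL the order was Pou3f1 at 25.6 ± 7.2 RPKM, Zic2 at 23.3 ± 8.3, Zic5 at 17.4 ± 3.9, Otx2 at 11.1 ± 12.4, Foxd3 at 9.78 ± 3.4, Sall2 at 9.71 ± 2.2 and Sox3 at 5.28 ± 0.95, and there too only Sall2 and Sox3 differed by more than that. Otx2 had an SD above its mean from both media, since the EB library stood far above the FA and N2B27 libraries.

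The first comparison asked which factors had changed by the first and second day out of each medium. From 2iL, 6 of the 7 were higher at day 1 than at day 0, and the same 6 at day 2, where 14.6% and 23.8% of all genes tested were called higher. Pou3f1 changed most, by 5.65 ± 0.56 (log2 fold change ± SE; adjusted p = 3.5e-06) at day 1 and 7.22 ± 0.58 (adjusted p = 1.6e-07) at day 2. At day 1, Otx2 rose by 3.40 ± 0.75 (adjusted p = 0.0031), Sox3 by 2.85 ± 0.57 (adjusted p = 0.0015) and Sall2 by 2.14 ± 0.27 (adjusted p = 3.4e-05). Zic2 rose by 1.64 ± 0.43 (adjusted p = 0.0096) and Zic5 by 1.66 ± 0.50 (adjusted p = 0.02), with 1.62 and 1.56 at day 2, while Sox3 and Sall2 reached 4.53 ± 0.57 and 3.58 ± 0.28. Foxd3, at 1.33 ± 0.75 (adjusted p = 0.2) and 1.60 ± 0.75 (adjusted p = 0.097), was not called, although its day 1 libraries, at 21.4 to 50.6 CPM, did not overlap those of day 0. With the spread taken only from the days compared it was called at both days, at 1.47 (adjusted p = 0.01) and 1.65 (adjusted p = 0.0037). Without the FA course the day 1 calls of Otx2, Zic2 and Zic5 and the day 2 calls of Zic2 and Zic5 were lost, at adjusted p from 0.053 to 0.17, and without the course as a block so was that of Otx2 at day 1 (adjusted p = 0.055).

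From SL, 5 of the 7 were higher at day 1 and the same 5 at day 2, beside 8.45% and 15.6% of genes tested. Zic2 rose by 4.03 ± 0.78 (adjusted p = 0.0033) at day 1 and 4.75 ± 0.80 (adjusted p = 0.00047) at day 2. Sall2 rose by 3.54 ± 0.40 and 4.82 ± 0.42 (adjusted p = 0.00011 and 1.9e-06), Sox3 by 3.58 ± 0.62 and 5.08 ± 0.63 (adjusted p = 0.0019 and 4.4e-05), and Pou3f1 by 3.38 ± 0.68 and 4.83 ± 0.73 (adjusted p = 0.0041 and 0.00021). Zic5 rose by 2.80 ± 0.75 (adjusted p = 0.018) and 3.21 ± 0.76 (adjusted p = 0.0049). Otx2, at 2.11 ± 0.74 (adjusted p = 0.057) and 1.79 ± 0.72 (adjusted p = 0.07), was not called in edgeR and was called by DESeq2 (adjusted p = 0.0063 and 0.019), and Foxd3 stood at 0.22 ± 0.68 and 0.09 ± 0.68 (95% interval at day 2 -1.24 to 1.41). All of these rest on 1 day 0 library. The day 1 call of Zic5 was lost without FA (adjusted p = 0.073) and without the course as a block (adjusted p = 0.069).

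**Figure D2:**
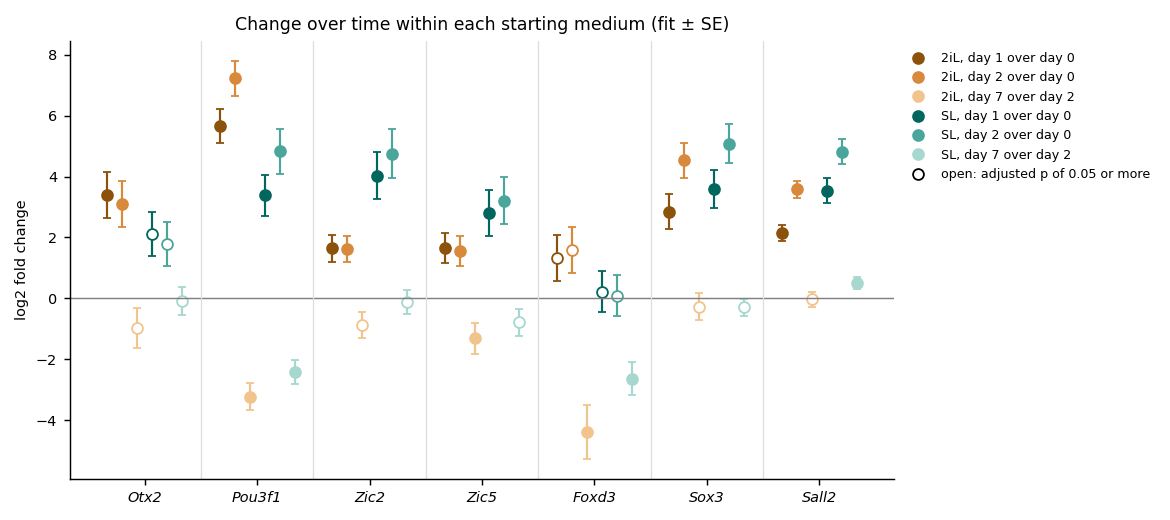
Fitted log2 fold change (points) with its standard error (bars) for each factor between days, within cells from 2iL (browns) and from SL (greens), with filled points where the edgeR adjusted p was under 0.05. Pou3f1 rises and falls from both media, Foxd3 falls from both, and the later changes of Sox3 lie near 0.

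Between day 2 and day 7 the group split. Foxd3 fell by 4.39 ± 0.88 from 2iL (adjusted p = 0.00057) and by 2.64 ± 0.54 from SL (adjusted p = 0.00072), and Pou3f1 fell by 3.23 ± 0.45 (adjusted p = 2.3e-05) and by 2.42 ± 0.39 (adjusted p = 9.8e-05). Zic5 fell from 2iL, by 1.31 ± 0.50 (adjusted p = 0.033), a call that was lost without the course as a block (adjusted p = 0.088) and with only the days compared (adjusted p = 0.066), and stood at -0.82 without N2B27 cells. Otx2, Zic2 and Sox3 were not called from either medium. Sall2 was at -0.03 ± 0.25 from 2iL and rose by 0.50 ± 0.20 from SL (adjusted p = 0.042), and that last call was lost without EB (0.28, adjusted p = 0.39), without FA, without the block and with only the days compared. The called shares of all genes were large here, at 58.1% from 2iL and 55.1% from SL, above the 3 of 7 members called in each. Markers of later cell types moved over the same days. Of the 6 neural progenitor genes Sox1, Pax6, Nes, Pax3, Hes5 and Olig2, 3 rose from 2iL and 4 from SL and none fell, with sums of 43.7 to 84.7 CPM at day 2 and 98.2 to 374.7 at day 7 from 2iL, and of 34.2 to 86.55 and 157.2 to 262 from SL. Of the 4 endoderm genes Gata6, Gata4, Sox17 and Foxa2, 3 rose from 2iL and 2 from SL, with sums of 10.3 to 56.15 CPM at day 2 and 15.25 to 329.4 at day 7 over both media. The endoderm sum rose in EB and N2B27 cells from both media. In FA cells it fell, from 30.3 to 15.25 CPM from 2iL and from 38.1 to 19.3 CPM from SL. The part of these neural and endoderm genes in the falls of the members was not tested. Of the 12 formative partner genes, 10 were lower and 1 higher at day 7 in each medium. Of those in 2iL, Tcf15, a bHLH factor of the epiblast, had the largest fall, at -3.41 ± 0.53, and Tead2, which acts with YAP, was the 1 that rose, by 0.81 ± 0.18.

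The next comparison set cells from 2iL against cells from SL. At day 0, 5 of the 7 differed, where 30.8% of genes tested were called. Zic2 was higher in 2iL by 3.504 ± 0.33 (adjusted p = 0.00017), Zic5 by 1.93 ± 0.21 (adjusted p = 0.00027) and Sall2 by 1.51 ± 0.41 (adjusted p = 0.023). Pou3f1 was lower in 2iL by 2.25 ± 0.46 (adjusted p = 0.0067) and Foxd3 by 1.002 ± 0.23 (adjusted p = 0.01). Otx2, at -1.24 ± 0.43 (adjusted p = 0.057), and Sox3, at 0.38 ± 0.79 (95% interval -1.17 to 1.93), were not called. This comparison has 1 SL library and takes its spread from the 3 from 2iL. With the spread of all 45 libraries, 3 of the 7 were called and those of Foxd3 (adjusted p = 0.54) and Zic5 (adjusted p = 0.053) were lost. The SL library also held RNA of endoderm genes: Gata6, Gata4, Sox17 and Foxa2 summed to 60.8 CPM, against 1.63 to 3.84 in the 3 libraries from 2iL, with all 4 called lower in 2iL, and their part in these differences was not tested.

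After release from the 2 media, fewer of the 7 were called, although the step from day 0 to the later windows was not itself tested. Over days 1 to 2, Zic2 alone was called, at 0.77 ± 0.24 (adjusted p = 0.015), where 35.5% of all genes were. Its 9 libraries from 2iL held a median of 85.0 CPM (range 67.9 to 101.7) and the 9 from SL 49.3 CPM (range 29.1 to 94.1), so the sets overlapped. All 4 endoderm genes were lower in 2iL in this window too, with sums of 7.88 to 30.3 CPM from 2iL and 38.1 to 79.9 from SL, and their part in the Zic2 difference was not tested. That call was lost without EB (adjusted p = 0.052), without FA (0.16) and without the course as a block (0.051). The other 6 ranged from -0.27 ± 0.24 for Sox3 to 0.63 ± 0.27 for Zic5. Over days 5 and 7, edgeR called none of the 7, beside 1.02% of all genes, with 1 at an unadjusted p under 0.05 and 1 by DESeq2, which was Pou3f1. Its value was -1.04 ± 0.33 (adjusted p = 0.12). Zic2, which had differed most at day 0, stood at -0.03 ± 0.32 (95% interval -0.65 to 0.59). Foxd3 and Otx2 stood at -0.74 ± 0.53 and -0.54 ± 0.39. The change from day 2 to day 7 itself was called between media in none of the 7 by edgeR or DESeq2, none had an unadjusted p under 0.05, and 0.771% of all genes were called.

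**Figure D3:**
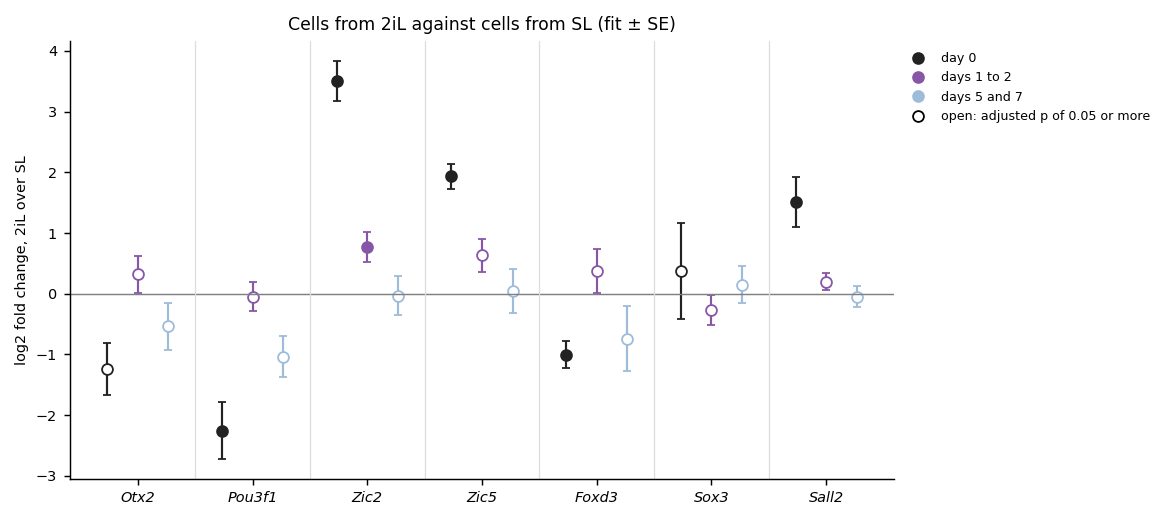
Fitted log2 fold change of cells from 2iL over cells from SL (points) with its standard error (bars) for each factor at day 0, over days 1 to 2 and over days 5 and 7, with filled points where the edgeR adjusted p was under 0.05. Zic2, at 3.504 at day 0, moves to 0.77 and then to -0.03.

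The last set of comparisons asked how the 7 factors differed between serum aggregates, cells in Fgf2 with Activin A, and cells in bare N2B27. EB differed from the adherent courses in serum, base medium and suspension at once, so the parts of these cannot be told apart. Over days 1 to 2, edgeR called none of the 7 between FA and N2B27 cells (1 at an unadjusted p under 0.05, none by DESeq2) and 2.13% of all genes, with values from -0.58 ± 0.27 for Sox3 to 0.32 ± 0.28 for Otx2. EB, in contrast, held more Otx2, at 2.08 ± 0.28 over N2B27 (adjusted p = 6.4e-06) and 1.76 ± 0.28 over FA (adjusted p = 7.3e-05). The 6 EB libraries held a median of 98.8 CPM (59.65 to 115), the FA libraries 29.0 (19.6 to 42.8) and the N2B27 libraries 24.25 (13.5 to 28.0), so EB overlapped with neither. Pou3f1 was also higher in EB, by 1.18 ± 0.25 over N2B27 (adjusted p = 0.00072) and 1.11 ± 0.25 over FA (adjusted p = 0.0018), and Sall2 by 0.53 ± 0.15 and 0.66 ± 0.15 (adjusted p = 0.008 and 0.0024). Their ranges overlapped between courses, since day and medium move both genes within each. These were 3 of 7 in each contrast, beside 17.2% of all genes called higher against N2B27 and 13.9% against FA. Without medium and day as blocks only the Otx2 calls were left. Without 2iL the Pou3f1 call over FA (0.73, adjusted p = 0.079) and the Sall2 call over N2B27 (0.36, adjusted p = 0.072) were lost, and the Sall2 value over FA was 0.43. The EB libraries from 2iL were also the deepest as a set. In SL alone Otx2 was above N2B27 by 2.00 (adjusted p = 0.003), but the day 2 EB library from SL was deep too, at 37071102 reads. The part of depth in these differences was not tested.

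Over days 5 and 7 the N2B27 course stood apart from both others. Against EB, 6 of the 7 differed, beside 46.8% of all genes, and against FA 5, beside 36.0%. Otx2 was higher in EB by 3.64 ± 0.39 (adjusted p = 9.8e-08) and in FA by 2.10 ± 0.40 (adjusted p = 0.00022). Zic2 was higher by 1.98 ± 0.20 (adjusted p = 3.2e-08) and 1.59 ± 0.21 (adjusted p = 3.1e-06), and Zic5 by 2.34 ± 0.22 (adjusted p = 2e-08) and 2.29 ± 0.24 (adjusted p = 9.7e-08). The 4 N2B27 libraries held 2.75, 5.46, 6.64 and 13.85 CPM of Otx2 and 17.9 to 34.75 CPM of Zic2, and no EB or FA library of those days came as low in either. Pou3f1 was higher in EB by 1.45 ± 0.34 (adjusted p = 0.0012) and in FA by 1.65 ± 0.36 (adjusted p = 0.00087). Foxd3 was higher in EB by 2.51 ± 0.63 (adjusted p = 0.0021) and stood at 1.49 ± 0.70 in FA (adjusted p = 0.096). Sox3 went the other way, lower by 1.77 ± 0.33 in EB (adjusted p = 0.00011) and by 1.61 ± 0.37 in FA (adjusted p = 0.0014). Sall2 was called in neither, at 0.32 ± 0.18 (95% interval -0.04 to 0.68) and -0.17 ± 0.21 (-0.58 to 0.23). Without SL, the calls of Foxd3 and Pou3f1 in EB (adjusted p = 0.13 and 0.069) were lost. The Pou3f1 call in FA was also lost without SL, where the late FA window held only the day 7 library from 2iL. The EB value of Sox3 was -0.75 without 2iL and -2.87 without SL.

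**Figure D4:**
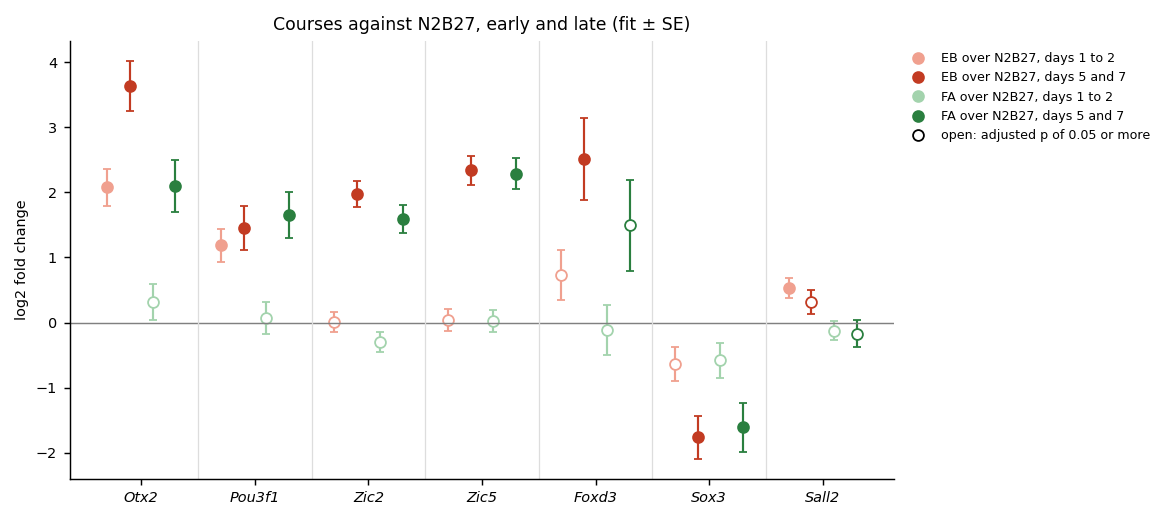
Fitted log2 fold change of EB (reds) and FA cells (greens) over N2B27 cells (points) with its standard error (bars) for each factor, pale for days 1 to 2 and dark for days 5 and 7, with filled points where the edgeR adjusted p was under 0.05. The FA points lie near 0 early and, for Otx2, Pou3f1, Zic2 and Zic5, between 1.59 and 2.29 late, while Sox3 lies below 0.

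Other cell types moved with this split. The 4 endoderm genes summed to 107.3 to 329.4 CPM in the 4 late N2B27 libraries, 44.2 to 113.8 in EB and 15.25 to 42.1 in FA. The 6 neural progenitor genes summed to 244.8 to 597.6 CPM in N2B27, 98.2 to 254.3 in EB and 157.7 to 323 in FA, and the 4 streak and mesoderm genes T, Mixl1, Eomes and Mesp1 to 144.1 to 721.9 in EB, 19.3 to 77.3 in FA and 3.56 to 7.29 in N2B27. Their part in the results was not tested. Foxd3 is also a neural crest gene. Of the other crest markers on the list, Sox10 stayed at or under 2.16 CPM in all libraries, Tfap2a at or under 3.75, Snai2 at or under 8.15 and Pax3, shared with neural progenitors, at or under 10.98. Of the 5 crest genes, Foxd3 included, 3 were higher and 1, Foxd3, lower at day 7 than at day 2 from 2iL, and 2 higher and 1, again Foxd3, lower from SL. The formative partner genes followed the same division, 11 of 12 higher in EB and 10 of 12 in FA than in N2B27 at days 5 and 7, with medians of 1.49 and 1.52 beside 0.010 and 0.007 over all genes. Fgf5 was higher by 3.78 ± 0.53 in EB and 3.52 ± 0.54 in FA, Dnmt3b by 2.12 ± 0.39 and 1.11 ± 0.38, and Lef1 by 2.42 ± 0.43 and 1.39 ± 0.46.

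Between EB and FA at days 5 and 7, Otx2 was higher in EB, by 1.53 ± 0.39 (adjusted p = 0.0076), and none of the other 6 was called, where 19.8% of all genes were. The others ranged from -0.20 ± 0.35 for Pou3f1 to 1.02 ± 0.62 for Foxd3, and Sall2 stood at 0.49 ± 0.20 (adjusted p = 0.084). All 4 streak and mesoderm genes and 3 of the 4 endoderm genes were higher in EB than in FA. Without SL, the late FA window held only the day 7 library from 2iL, and the Otx2 value was 1.40. The change between the early and the late window was then compared between courses. Against N2B27, it differed in EB for 4 of the 7 (28.6% of all genes) and in FA for 4 (18.6%). It was 2.30 ± 0.27 in EB and 2.27 ± 0.29 in FA for Zic5, and 1.97 ± 0.25 and 1.89 ± 0.26 for Zic2, with adjusted p of 2e-05 or less. EB and FA share the N2B27 libraries as their reference here. Between EB and FA, edgeR called the change of none of the 7 (1 at an unadjusted p under 0.05, 1 by DESeq2), beside 9.14% of all genes. The member with that unadjusted p was Pou3f1, at -1.31 ± 0.43 (95% interval -2.16 to -0.47, edgeR adjusted p = 0.056).

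Relatives of the 7 from the same families were counted in the same libraries. Of 16 listed, 14 could be tested between day 0 and day 2 from 2iL, where 2 were called higher, Sall1 among them, and 1 lower, which was Sox2. From SL, 15 could be tested, and none was higher and 1 lower at day 2. Of all genes tested, 23.8% from 2iL and 15.6% from SL were called higher there. Between day 2 and day 7, 6 relatives rose and 3 fell from 2iL, and 8 rose and 3 fell from SL, beside 58.1% and 55.1% of all genes called. At days 5 and 7, 5 were higher and 6 lower in EB than in N2B27 cells, beside 46.8% of all genes called. In FA, 1 was higher and 7 lower than in N2B27 cells, beside 36.0%. Among the POU class III genes, Pou3f2 and Pou3f3 (brain factors also called BRN2 and BRN1) stayed at or under 1.32 CPM through day 2.5, then stood at 92.1 and 35.1 CPM at day 5 in N2B27 cells from 2iL and at 50.6 and 24.5 CPM in those from SL. On the RPKM scale Pou3f2 held 16.5 and 9.05 there, against 1.03 and 2.01 for Pou3f1, which had been the higher of the pair at day 2 in all 6 libraries. Pou3f4 never passed 3.17 CPM.

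Sox2, shared by naive cells and neural progenitors, was high throughout, from 225.7 to 272.8 CPM in the day 0 libraries to 41.2 to 96.6 at day 7. Sox1, an early neural marker, rose in N2B27 cells to 225.2 CPM at day 3 from 2iL and 136.2 from SL and stayed at or under 6.31 CPM in EB through day 5. At day 2, Sox3 at 3.19 to 6.13 RPKM was below Sox2 at 36.3 to 82.45 RPKM in every library.

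Among the ZIC genes, Zic1 stayed at or under 3.15 CPM through day 2.5 and reached 48.4 CPM in FA cells from 2iL and 33.8 in EB from SL at day 7. Zic4 never passed 2.11 CPM. Otx1 was at or under 2.32 CPM except in EB from SL at day 7, at 19.98, and Crx never passed 0.48. Foxd1, Foxd2 and Foxd4 never passed 3.27 CPM. Sall4 (190.3 to 523.2 CPM) and Sall1 (54.7 to 234.8 CPM) were high in all libraries, and Sall3 ranged from 1.44 to 51.3 CPM.

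**Figure D5:**
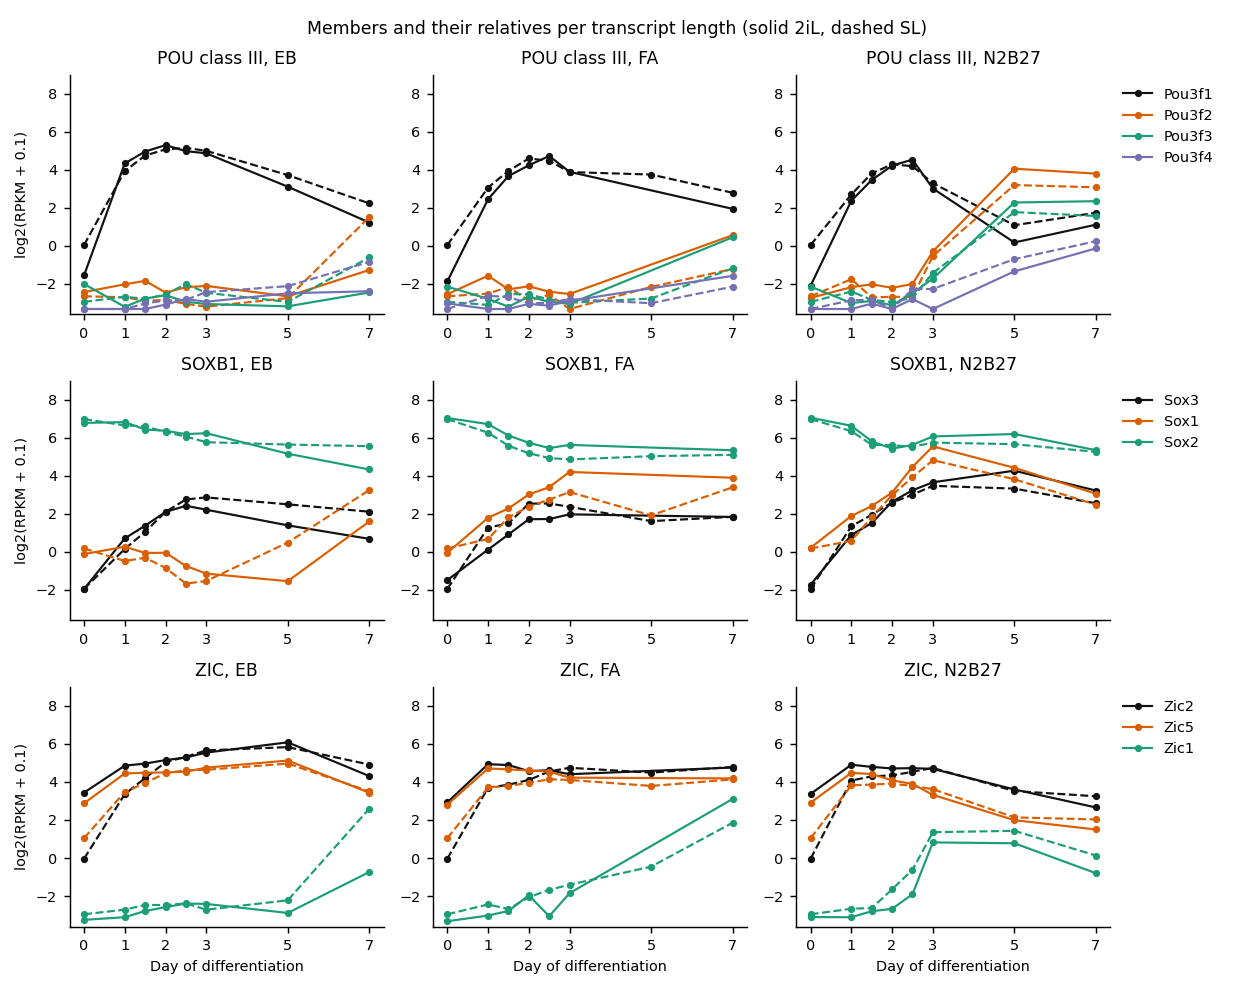
Level per transcript length, as log2(RPKM + 0.1), of POU class III, SOXB1 and ZIC genes against the day of differentiation in each course, with 1 library per point, colour for the gene and line for the starting medium (2iL solid, SL dashed with its shared day 0 library). Pou3f1 gives way to Pou3f2 and Pou3f3 in N2B27 cells at days 5 and 7, and Zic1 rises late while Zic2 and Zic5 are high from day 1.

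Likeness was read as Pearson's r of log2(CPM + 0.5) over the 45 libraries, which share days, courses and the SL reference, and it is given as a description among 13768 genes with a mean of at least 1 CPM. Among the members, Zic2 and Zic5 were the most alike (r = 0.878), followed by Sox3 and Sall2 (0.862), and Foxd3 ran against Sox3 (-0.353). Otx2 and Pou3f1 stood at 0.703. For Foxd3 the most alike gene was its neighbour Gm12688 (0.932), a non-coding gene 1315 bases away on the opposite strand, beyond the far end of the window printed above, at 0.112 to 4.25 CPM. It was followed by Ccnb1ip1 (0.931) and Rhd (0.916). For Zic5 they included Slc27a2 (0.889) and Zic2, and for Zic2 they were Zic5, Lysmd2 (0.823) and Slc27a2 (0.790). A non-coding gene that starts 235 bases from Zic2 on the other strand, 2610035F20Rik, followed Zic2 at 0.748 and never passed 2.14 CPM. Pou3f1 was closest to Bcl11a (0.931), Mmp25 (0.929) and G2e3 (0.913), and Otx2 to Kcng3 (0.899), Sptb (0.890) and Mtap7d3 (0.884). Sox3 was closest to Nat8l (0.888), Aff3 (0.885) and Jakmip2 (0.877), and Sall2 to Lpar4 (0.930), St6gal2 (0.923) and Pde3b (0.916). By Spearman's rho, 4 of the 7 members kept none of their 3 most alike genes among their closest 3.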

How the data were processed

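The deposited files hold strand-specific read counts per gene for 45 libraries of total RNA depleted of ribosomal RNA, 1 raw count per gene and not normalised. Per the study's methods, the authors trimmed reads with TrimGalore, mapped them to GRCm38/mm10 with TopHat2 allowing 1 mismatch and guided by Ensembl release 82, and counted with featureCounts; versions are not given in the sources used here. Library totals ran from 13093226 to 39804240 reads, so 3 reads stand for 0.0754 to 0.229 CPM, which covers counting error only.

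The members, gene lists and motifs were chosen with earlier results of these data known. All 7 members were described in every comparison, their listed relatives by counts of calls and by level, and the counted genes within 10 kb and the 3 most alike genes (pseudocount 0.5 CPM) by name, apart from 2 genes that are not reported here. Counts were tested in R 4.3.3 with the edgeR 4.0.16 quasi-likelihood test (TMM scaling, filterByExpr) on all genes passing the filter, with Benjamini-Hochberg adjustment and a threshold of 0.05. Comparisons of days and media had the course as a block, in which the SL day 0 library, of no course, was set at the average of the courses, except that the day 0 media were compared with no block, and comparisons of courses had medium and day as blocks. DESeq2 1.42.0, its size factors, no filter, no block and leaving out each course or medium were alternatives. A comparison from each edgeR model was run on simulated counts, drawn independently for each library and without course effects. Interactions, late windows and DESeq2 were not simulated, nor was the correlation within a course given below. Pairs of libraries from the same medium that shared a day or a course were checked for copies. None of these 183 pairs agreed within sampling noise (smallest chi-square per degree of freedom 8.52). Pairs across media were not checked, and the SL day 0 library was in no pair. Libraries of 1 course deviated together (mean correlation 0.462, lowest 0.0909, over 13768 genes). RPKM used the summed exon length of GENCODE genes on GRCm38, in which 34599 of 35372 genes were found. Figures were drawn with matplotlib 3.10.9.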

Additional observations from a re-analysis of the deposited data

Results flagged for a closer look

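Between days 1 to 2 and days 5 and 7, the change of Otx2, Zic2, Zic5 and Sox3 in EB differed from that in N2B27 cells, and the change of Otx2, Pou3f1, Zic2 and Zic5 in FA cells differed from it too, by the edgeR interaction test over all genes. In EB the difference in log2 change was 1.56 ± 0.46 (SE) for Otx2 (adjusted p = 0.013), 1.97 ± 0.25 for Zic2 (adjusted p = 3.6e-06) and 2.30 ± 0.27 for Zic5 (adjusted p = 2.1e-06). In FA it was 1.78 ± 0.49 for Otx2 (adjusted p = 0.012), 1.58 ± 0.44 for Pou3f1 (adjusted p = 0.012), 1.89 ± 0.26 for Zic2 (adjusted p = 2e-05) and 2.265 ± 0.29 for Zic5 (adjusted p = 6.9e-06). EB and FA share the N2B27 libraries as reference. The Zic2 and Zic5 calls held with either medium left out. Those of Otx2 did not, at adjusted p from 0.079 to 0.18 over the 4 fits that left out a medium. That of Pou3f1 was lost without the blocks (adjusted p = 0.099) and without SL, where its value was 1.47. Without SL, the late FA window held only the day 7 library from 2iL.

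Sox3 had a difference of -1.12 ± 0.42 in EB (adjusted p = 0.045). It stood at 0.15 without 2iL and at -2.43 without SL, and the call was also lost with no filter on low counts (adjusted p = 0.052) and without the blocks (adjusted p = 0.21). In N2B27 cells from 2iL, Sox3 reached 39.6 CPM at day 5, against 20.5 in those from SL. With 1 library for each medium, course and day, no group was tested for an outlying library.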

How the results depend on the processing

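The 833 member values recomputed under other settings kept direction and call in 740. Of the 412 that belong to the 60 called values, 373 held, 38 kept the direction but lost the call and 1 reversed, the change of Sox3 in EB against N2B27, which was -1.12 and ran from -2.43 to 0.15 when a medium was left out. The cause of the moves below was not tested.

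The number of the 7 factors called moved in 17 of 128 recomputed counts. For 2iL against SL it was 3 in place of 5 at day 0 with the spread of all 45 libraries. Over days 1 to 2 it was 2 by DESeq2, 0 without the replicate block and 0 to 2 with a course left out, in place of 1. Over days 5 and 7 it was 1 by DESeq2 in place of 0. From 2iL at day 1 it was 3 to 6 with a course left out, in place of 6. For the change of EB against FA it was 1 by DESeq2 and 1 to 2 with a medium left out, in place of 0. Over days 1 to 2 the fit without the replicate block called 1 of EB against FA and 1 of EB against N2B27, in place of 3. With a medium left out, the calls were 1 to 2 for EB against FA over days 5 and 7 (in place of 1), 2 to 4 for the change of EB against N2B27 (4), 2 to 3 for that of FA against N2B27 (4) and 0 to 1 for FA against N2B27 over days 1 to 2 (0). In the fits without SL, the late FA window held only the day 7 library from 2iL. Courses pair the libraries of the 2 media and of the days, and the block changed no other count of members by this much.

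Among the member values tallied, some near 0 turned sign. Without the replicate block this was so for Pou3f1 (0.028) and Zic2 (0.014) in 2iL against SL over days 1 to 2 and days 5 and 7, and for Zic5 (-0.0081) in EB against FA over days 1 to 2, and with DESeq2 (-0.0096) or its size factors (-0.0071) for Zic2 in EB against N2B27 over days 1 to 2. With a course left out, 2iL against SL ran over days 1 to 2 from -0.28 to 0.084 for Pou3f1 and -0.59 to 0.095 for Sox3, over days 5 and 7 from -0.46 to 0.38 for Sall2, -0.74 to 0.81 for Sox3, -0.30 to 0.15 for Zic2 and -0.45 to 0.27 for Zic5, and for the change from -0.30 to 0.71 for Sox3. From day 2 to 7 in 2iL, Sall2 ran from -0.19 to 0.22 and Sox3 from -0.66 to 0.18, and in SL, Otx2 from -0.23 to 0.079 and Zic2 from -0.59 to 0.26. Foxd3 in SL ran from -0.10 to 0.40 at day 1 and -0.18 to 0.26 at day 2. With a medium left out, EB against FA ran from -0.64 to 0.55 for Sox3 and -0.13 to 0.17 for Zic5 early and -0.32 to 0.065 for Pou3f1 late. EB against N2B27 ran from -0.0505 to 0.065 for Zic2 early, -0.32 to 0.94 for Sall2 late and -1.01 to 0.58 for its change. FA against N2B27 ran from -0.25 to 0.023 for Foxd3, -0.0869 to 0.20 for Pou3f1 and -0.12 to 0.15 for Zic5 early, -0.27 to 0.076 for Sall2 late and -0.0868 to 0.14 for its change.

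Counts of all genes called moved by over 1.5 times in 43 of 128. For 2iL against SL, 127 genes for the change became 4 to 308, 168 over days 5 and 7 became 33 to 483, and 5840 over days 1 to 2 became 2997 without FA. From 2iL, 4663 at day 1 became 1884 to 3053, 7276 at day 2 became 4172 without FA, and 9468 at day 7 became 5430 with only the days compared. From SL, 2990 became 924 to 1082, 5320 became 3097 to 3129, and 9077 became 4852. For EB against FA, 4169 early, 3261 late and 1505 for the change became 1707 to 2468, 1418 to 1565 and 353 to 971. For EB against N2B27, 5199, 7713 and 4716 became 2745 to 3464, 4564 to 5105 and 2142 to 2233, and for FA against N2B27, 350, 5925 and 3067 became 9 to 759, 2736 to 3115 and 750 to 1642. Of 35 mean levels, 34 moved by less than their spread with TMM library sizes. Members with few reads, such as Sox3 at day 0 with 6 to 11, carry the widest errors.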
